A study of Mus musculus with 8 samples.

Results

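The cytosolic heat shock chaperones were followed as 10 genes of the 54532 in the deposited expression table, picked by symbol: Hspa1a, Hspa1b, Hspa8, Hsph1, Dnajb1, Hsp90aa1, Hsp90ab1, Hspb1, Cryab and Bag3. They were chosen with earlier results of these data known. All 10 were found and all 10 passed the filter, an average of 1 FPKM or more across the 8 libraries (fragments per kilobase, a level scaled to gene length and library size). RNA came from the substantia nigra of male C57BL/6 mice, whose age is not given in the labels, in 4 groups of 2 libraries. Control mice are labelled WT in the titles, the second group received AAV-α-synuclein (an adeno-associated virus with the gene of a protein found clumped in the neurons of patients with Parkinson's disease), the AKG group received α-ketoglutarate, a metabolite of the mitochondrial citric acid cycle, which per the series title was dietary, and the combined group is labelled AAV-α-synuclein+AKG. The labels do not give the promoter of the vector or the α-synuclein form, and they name no empty vector for the control and AKG mice. They also do not say whether the 2 libraries of a group came from separate animals, so p-values measure the spread between these libraries, which may be technical.

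Chaperones of this family bind unfolded stretches of other proteins. HSP70 proteins hold and release clients in an ATP-driven cycle that J-domain proteins such as Dnajb1 start and that nucleotide exchange factors such as Hsph1 and Bag3 reset, HSP90 proteins act later on partly folded clients, and the small heat shock proteins Hspb1 and Cryab hold clients without ATP. Some members are made at all times, and others are raised by heat shock factor 1 when unfolded proteins build up. HSP70 with Dnajb1 and an HSP110 partner is known to take apart α-synuclein fibrils in the test tube.

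The recovered library sizes were 16544190 to 19125423 reads, and the 10 chaperones together took 0.512% to 0.595% of them. Control library 1 stood apart: its Spearman correlation with the other 7 libraries, over genes, averaged 0.926, where no other library averaged under 0.971, and the choroid plexus gene Ttr was at 8778 FPKM there against 44.0 to 4857 elsewhere. Of the 10 dopamine neuron markers checked, 7 passed the filter, Th and Slc6a3 among them, while En1, Pitx3 and Foxa2 did not, and En1 was listed at 0 in AAV-α-synuclein library 1. In these bulk samples fewer cells of a type and less RNA per cell cannot be told apart.

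Hspa1a and Hspa1b, the stress-inducible HSP70 genes, are near copies, and the likeness of their transcripts bears on how far their values can be separated. The sequences printed below lie before the start sites, so they are not part of the counted transcripts. They are neighbours on chromosome 17 (GRCm38), with RefSeq start sites 12918 bases apart, and each has 1 exon. Their coding sequences in GENCODE M21 aligned over 1926 bases with 8 mismatches and 3 gap bases, an identity of 99.4%. The 250 bases before their starts differed at 3 positions, and the stretch from 160 to 41 bases before the start was the same in both. Capitals mark GAANNTTC, a pair of inverted heat shock element units (the site type that heat shock factor 1 binds), which reads the same on both strands. Hspb1, a small heat shock protein gene with 2 matches, is shown for comparison. The sequences are from RefSeq, build GRCm38.p6, 5′ to 3′ on the gene's strand.
Hspa1a, chr17:34972197-34972316, minus strand: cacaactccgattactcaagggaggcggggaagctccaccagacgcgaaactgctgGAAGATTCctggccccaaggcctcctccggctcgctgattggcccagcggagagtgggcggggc
Hspa1b, chr17:34959279-34959398, minus strand: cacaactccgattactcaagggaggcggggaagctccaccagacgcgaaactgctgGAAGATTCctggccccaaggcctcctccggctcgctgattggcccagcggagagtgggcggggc
Hspb1, chr5:135887779-135887838, plus strand: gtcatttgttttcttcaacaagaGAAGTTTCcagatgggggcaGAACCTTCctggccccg

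RefSeq windows were at hand for 6 of the 10 members: these 3, Hsph1, Dnajb1 and Bag3. Within 250 bases before the start, GAANNTTC was in the windows of Hspa1a, Hspa1b and Hspb1, and its counterpart TTCNNGAA in that of Hsph1, as TTCTCGAA at 33 to 26 bases before the more upstream start. GAANNTTC was in 6.69% and TTCNNGAA in 7.17% of 32851 such windows of all genes. The forms extended by 1 more unit, which contain the short ones and start with GAA or with TTC, were in 0.247% and 0.244% of windows and in none of these members'. A match is a description of the letters and not evidence of binding.

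Constitutive members dominated. Mean levels over the 8 libraries ran from 575.5 FPKM for Hsp90ab1, the constitutive HSP90, through 437 for Hspa8, the constitutive HSP70, 303.5 for Hsp90aa1, 85.2 for Cryab, 43.0 for Hsph1, 20.6 for Dnajb1, 19.3 for Hspb1 and 4.77 for Bag3 to 3.16 for Hspa1a and 2.30 for Hspa1b. Across genes, Hsp90ab1 was 36th and Hspa8 54th of the 13716 tested genes by level. The ranges of neighbours in this order did not overlap, except for Dnajb1 and Hspb1 (Dnajb1 higher in 6 of 8 libraries), Bag3 and Hspa1a (Bag3 higher in 8 of 8) and Hspa1a and Hspa1b (Hspa1a higher in 7 of 8). Hspa8 stood at 110 to 178 times the FPKM of Hspa1a in every library.

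**Figure D1:**
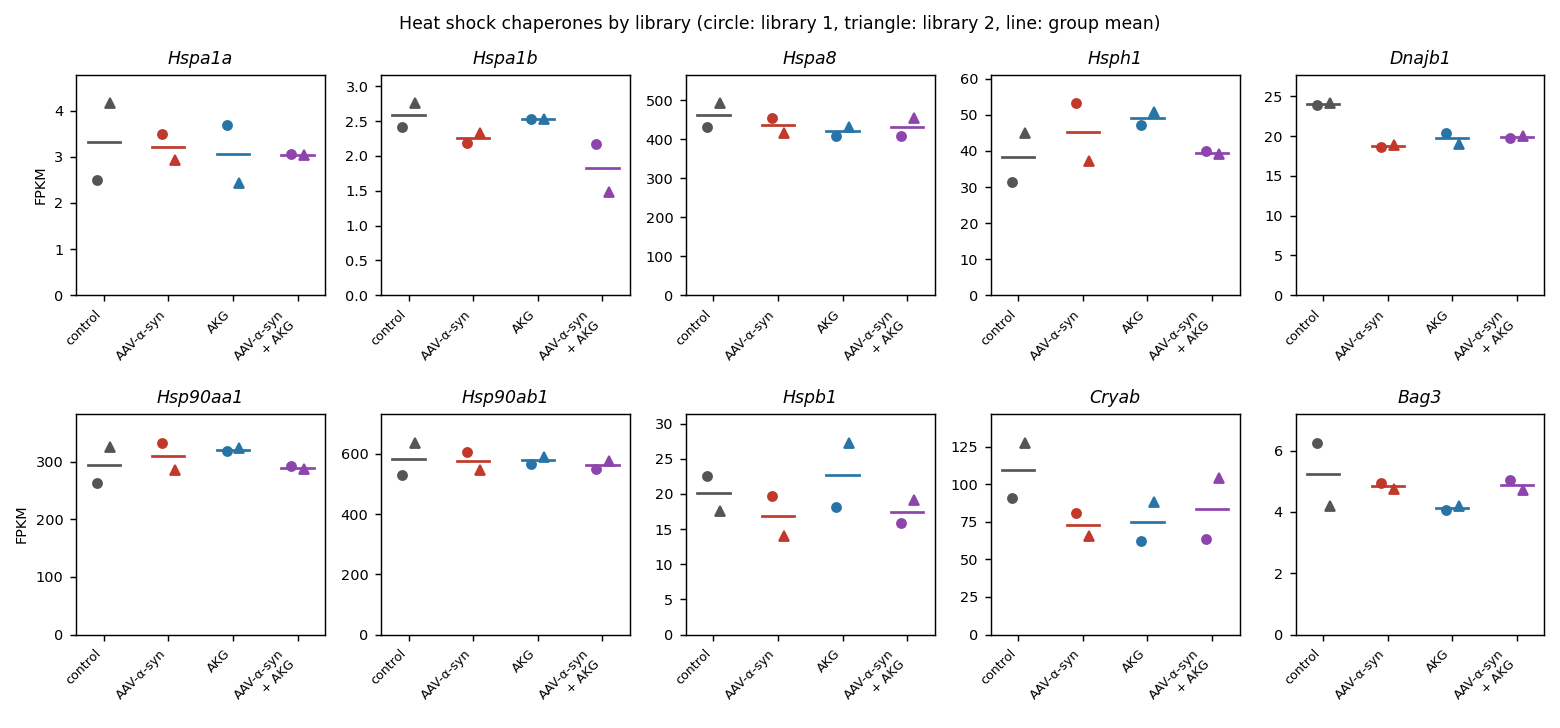
FPKM of the 10 heat shock chaperones in each library, with one linear axis from 0 per gene, circles for library 1, triangles for library 2 and a line at the group mean. Dnajb1 lies at 23.9 and 24.1 in control and at 18.7 to 20.5 in the other 6 libraries, while for most other genes the libraries of different groups are interleaved.

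None of the 10 chaperones passed the threshold (limma on log2(FPKM + 1), adjusted p under 0.05 over 13716 genes) in any of the 5 comparisons. The share of all tested genes that passed was 0% for AAV-α-synuclein against control, 0.00729% (1 gene, Th) for AKG against control, and 0% for the combined against the AAV-α-synuclein group, the combined against the AKG group and the interaction. At an unadjusted p under 0.05 there was 1 member, Dnajb1, in each comparison with control and in the interaction, where the shares of all genes were 16.8%, 17.7% and 7.28%, and there was none in the comparisons of the combined group, where they were 1.36% and 1.14%. These member counts lie at or under the shares of all genes, apart from the interaction, where 1 of 10 is near 7.28%. Voom on the recovered reads called 0 members in all 5 comparisons and had the same member counts at an unadjusted p under 0.05. The intervals were wide with 2 libraries a group, that of Cryab reaching from -1.26 to 0.14 on the log2 scale for AAV-α-synuclein against control and from -0.29 to 1.68 for the interaction.

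Dnajb1, the main cytosolic J-domain partner of inducible HSP70 (ENSMUSG00000005483, chromosome 8, 83608193 to 83612653), had the closest replicates of the 10, within 1.08 times of each other in every group. It was at 23.9 and 24.1 FPKM in control, 18.7 and 18.9 in the AAV-α-synuclein group, 20.5 and 19.0 in the AKG group, and 19.8 and 20.1 in the combined group. All 6 libraries outside control lay below both control libraries, which held for 12.2% of tested genes. The log2 difference from control was -0.34 ± 0.09 in the AAV-α-synuclein group (estimate ± standard error, limma adjusted p = 0.294, lower in 2 of 2 libraries) and -0.27 ± 0.09 in the AKG group (adjusted p = 0.270, lower in 2 of 2). Over the alternative settings the first ranged from -0.35 to -0.25 (adjusted p from 0.0510 to 0.761) and the second from -0.32 to -0.20 (0.0890 to 0.738). Without control library 1 they were -0.34 and -0.28. Both combined libraries lay above both AAV-α-synuclein libraries, as in 12.9% of tested genes, and the combined group differed by 0.08 ± 0.09 from the AAV-α-synuclein group and by 0.01 ± 0.09 from the AKG group (limma adjusted p = 0.99996 and 0.99994). The interaction, the change with AKG in the groups labelled with vector minus that in the groups with no vector label, was 0.35 ± 0.13 (limma adjusted p = 0.537). The AAV-α-synuclein and AKG comparisons share the control libraries, so their values are not independent of each other. Other sums had the same split as Dnajb1. The chaperonins, ring-shaped folding machines, summed to 569 and 543 FPKM in control and 466 to 507 elsewhere. The heat shock factors with Hsbp1 summed to 179 and 148 in control and 126 to 137 elsewhere. Most of this sum was the binding protein gene Hsbp1, at 158 and 126 in control and 104 to 114 elsewhere. The factors Hsf1, Hsf2 and Hsf4 did not have this split. Summed dopamine neuron markers had this split too, with 6 of the 7 tested below control in both comparisons, though Ret and Nr4a2 did not split by library. The 10 genes of the list summed to 148 and 153 FPKM in control and to 63.3 to 89.3 in the other 6 libraries, with Th at 38.8 in both control libraries and at 10.4 to 16.6 elsewhere. The AKG libraries, which carry no vector label, were among the low ones, and the part of these markers in the Dnajb1 values was not tested.

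Hspa1a (ENSMUSG00000091971, chromosome 17, 34969190 to 34972156) was at 2.49 and 4.16 FPKM in control, 3.49 and 2.94 in the AAV-α-synuclein group, 3.70 and 2.43 in the AKG group, and 3.05 and 3.03 in the combined group. The libraries of control spanned those of every group except the lower AKG library. Hspa1b (ENSMUSG00000090877, chromosome 17, 34956436 to 34959238) was at 2.42 and 2.76, 2.18 and 2.33, 2.54 and 2.53, and 2.17 and 1.48 in the same order. Both AAV-α-synuclein libraries were below both control libraries (log2 difference -0.14 ± 0.15, limma adjusted p = 0.582), and both combined libraries were below both AAV-α-synuclein and both AKG libraries, with log2 differences of -0.22 ± 0.15 and -0.33 ± 0.15 (limma adjusted p = 0.99996 and 0.99994). The corresponding shares of all tested genes with both libraries lower were 27.6%, 11.4% and 11.8%. These values rest on few reads, 122 to 227 per library for Hspa1a and 74 to 142 for Hspa1b.

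Reads from the pair may also be divided in part by the counting, for which neither labels nor headers say how reads that fit several places were handled. Of the 100-base windows of the Hspa1a transcript 47.1% also occur in Hspa1b, and 49.9% of those of Hspa1b occur in Hspa1a. The ratio of their FPKM ran from 0.960 in AKG library 2 to 2.06 in combined library 2. Summed, which depends little on how shared reads were split between the pair, they had 4.91 and 6.92 FPKM in control, 5.67 and 5.27 in the AAV-α-synuclein group, 6.23 and 4.95 in the AKG group, and 5.22 and 4.51 in the combined group. The summed values overlapped between control and each other group.

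Hspa8, the constitutive HSP70 that also uncoats clathrin vesicles (ENSMUSG00000015656, chromosome 9, 40800984 to 40810087), was at 431 and 492 FPKM in control, 456 and 415 in the AAV-α-synuclein group, 408 and 432 in the AKG group, and 407 and 455 in the combined group. The groups overlapped throughout, and the log2 differences in the 4 pairwise comparisons lay between -0.13 and 0.04. Hspa8 was among the steadier genes: its SD over the 8 libraries was 0.094 on the log2(FPKM + 1) scale, against a median of 0.17 over tested genes. Of its 100-base windows 57.1% also occur in other genes, and 52.6% occur in each of the pseudogene Gm15459 and the noncoding RNA gene Gm26825, both listed at 0 in all 8 libraries.

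The HSP90 genes were about as steady, with SDs of 0.087 for Hsp90ab1 and 0.12 for Hsp90aa1 on that scale. Hsp90ab1 (ENSMUSG00000023944, chromosome 17, 45567775 to 45573271) was at 529.6 and 637 FPKM in control, 607 and 548 in the AAV-α-synuclein group, 567 and 590.2 in the AKG group, and 549 and 577 in the combined group. Control library 1 was the lowest and control library 2 the highest of the 8, so every other group lay within control. Its 95% intervals ran from -0.36 to 0.34 for AAV-α-synuclein and from -0.35 to 0.34 for AKG against control on the log2 scale. Hsp90aa1, the stress-responsive HSP90 (ENSMUSG00000021270, chromosome 12, 110690605 to 110702728), was at 263 and 326, 333 and 285, 319 and 323, and 293 and 287 FPKM in the same order. Its combined libraries lay below both AKG libraries, as in 11.8% of tested genes, with a log2 difference of -0.15 ± 0.15 (limma adjusted p = 0.99994). Some 40.7% of its 100-base windows also occur in other genes, mostly the transcribed pseudogene Gm12346, at 6.50 to 8.32 FPKM.

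Hsph1, the HSP110 that exchanges nucleotide on HSP70 (ENSMUSG00000029657, chromosome 5, 149614287 to 149636376), was at 31.4 and 45.1 FPKM in control, 53.2 and 37.3 in the AAV-α-synuclein group, 47.3 and 50.9 in the AKG group, and 39.9 and 39.1 in the combined group. Both AKG libraries were above both control libraries and above both combined libraries. The log2 difference was 0.37 ± 0.21 for AKG against control (limma adjusted p = 0.363) and -0.31 ± 0.21 for the combined against the AKG group (adjusted p = 0.99994). Both libraries lay above both controls in 26.0% of all tested genes in the AKG comparison. In 11.8% of tested genes both combined libraries lay below both AKG libraries. Without control library 1 the AKG difference was 0.12, and without control library 2 it was 0.63. Bag3, which links HSP70 to selective autophagy (ENSMUSG00000030847, chromosome 7, 128523616 to 128546981), was at 6.26 and 4.20 FPKM in control, 4.95 and 4.74 in the AAV-α-synuclein group, 4.07 and 4.19 in the AKG group, and 5.04 and 4.71 in the combined group. Both AKG libraries were below every other library, though control library 2 was close, and the log2 difference from control was -0.26 ± 0.16 (limma adjusted p = 0.384). In 26.4% of tested genes both AKG libraries were below both control libraries. Both combined libraries were above both AKG libraries, as in 11.3% of tested genes. Without control library 2, which leaves the deviating control library 1 alone in its group, Bag3 was called (-0.50, adjusted p = 0.0227), as were 3376 genes or 24.6% of all those tested, and without control library 1 the difference was -0.02.

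**Figure D2:**
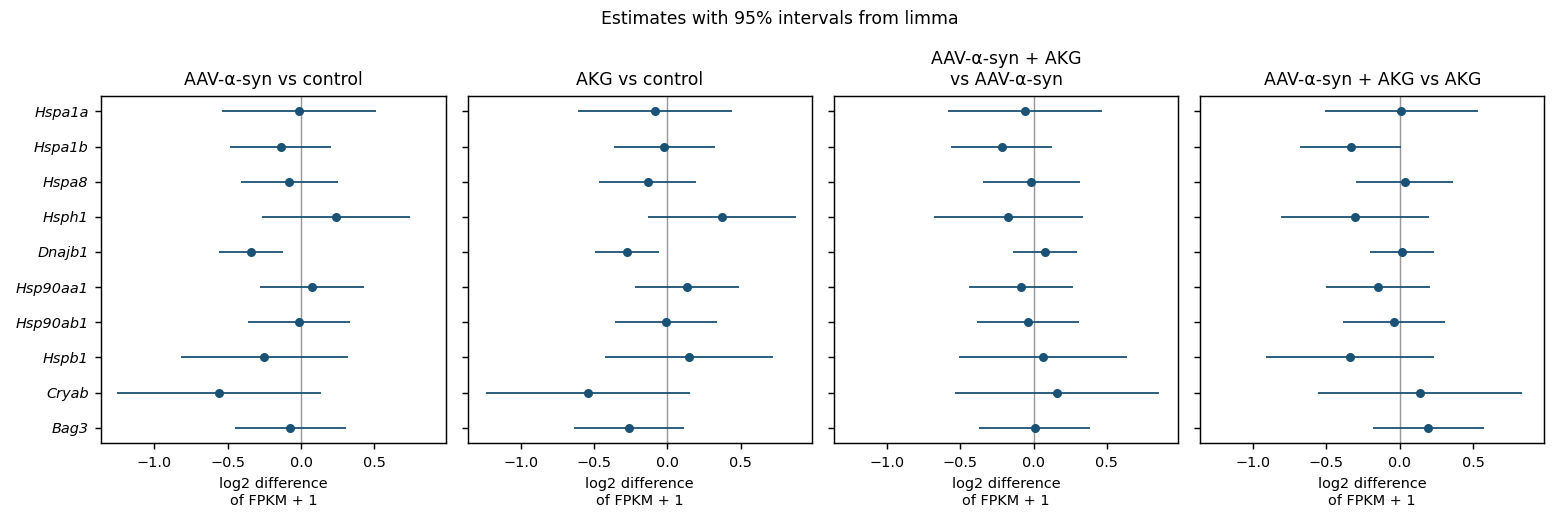
Log2 differences of FPKM + 1 for each chaperone in the 4 pairwise comparisons, as limma estimates with 95% intervals that are not adjusted for the number of genes. Only the Dnajb1 intervals against control leave out 0, from -0.56 to -0.12 for AAV-α-synuclein and from -0.49 to -0.05 for AKG.

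Hspb1 (HSP25 in mouse, ENSMUSG00000004951, chromosome 5, 135887919 to 135889563) was at 22.6 and 17.6 FPKM in control, 19.7 and 14.1 in the AAV-α-synuclein group, 18.1 and 27.3 in the AKG group, and 15.9 and 19.1 in the combined group. All groups overlapped with control, and the log2 differences from control were -0.25 ± 0.24 for AAV-α-synuclein and 0.15 ± 0.24 for AKG (limma adjusted p = 0.550 and 0.739). The combined group overlapped with both and differed by 0.06 ± 0.24 from the AAV-α-synuclein group and by -0.34 ± 0.24 from the AKG group (limma adjusted p = 0.99996 and 0.99994). The latter was the lowest of the 10 members in that comparison. Of its 100-base windows 44.0% also occur in other transcripts, all of them in the pseudogene Hsp25-ps1, which was at 0 to 0.187 FPKM.

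Cryab, the αB-crystallin of oligodendrocytes and astrocytes (ENSMUSG00000032060, chromosome 9, 50751325 to 50756636), varied most of the 10 between libraries. It was at 90.7 and 128 FPKM in control, 80.6 and 65.6 in the AAV-α-synuclein group, 61.9 and 87.9 in the AKG group, and 63.2 and 104 in the combined group. Both AAV-α-synuclein and both AKG libraries were below both control libraries, while the combined group overlapped with all 3 others. The log2 difference from control was -0.56 ± 0.29 for AAV-α-synuclein and -0.54 ± 0.29 for AKG (limma adjusted p = 0.332 and 0.348, lower in 2 of 2 libraries each). Downward, the groups did not overlap in 27.6% and 26.4% of all tested genes. Without control library 1 the differences were -0.80 and -0.78, without control library 2 they were -0.31 and -0.29, and without AKG library 1 the AKG difference was -0.29. Of its 100-base windows 10.7% also occur in transcripts of its neighbour Hspb2, which was at 0.123 to 0.779 FPKM.

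Oligodendrocyte markers varied with Cryab from library to library. The 9 markers, with Mbp and Mog among them and none at 0, summed to 1384 and 1982 FPKM in control, 1575 and 1329 in the AAV-α-synuclein group, 1305 and 1583 in the AKG group, and 1403 and 2176 in the combined group. In all 4 groups the library with more Cryab was the one with more marker RNA: the higher library exceeded the lower by 1.41 times for Cryab and 1.43 times for the markers in control, 1.23 and 1.19 in the AAV-α-synuclein group, 1.42 and 1.21 in the AKG group, and 1.65 and 1.55 in the combined group. Set against the marker sum, a ratio chosen after the values were seen, Cryab stood at 6.55% and 6.44% in control, 5.12% and 4.93% in the AAV-α-synuclein group, 4.74% and 5.55% in the AKG group, and 4.51% and 4.79% in the combined group. On this scale both control libraries were above the other 6, a split that 12.2% of tested genes had in FPKM and that Cryab FPKM did not have. The combined libraries, at 4.51% and 4.79%, were not above those of the AAV-α-synuclein group. Hspa8 and Hsp90ab1 also had their higher library where oligodendrocyte markers were higher in 4 of 4 groups. The same held for all 3 genes with the neuron and the endothelial markers. The part of cell make-up in these values was not tested.

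**Figure D3:**
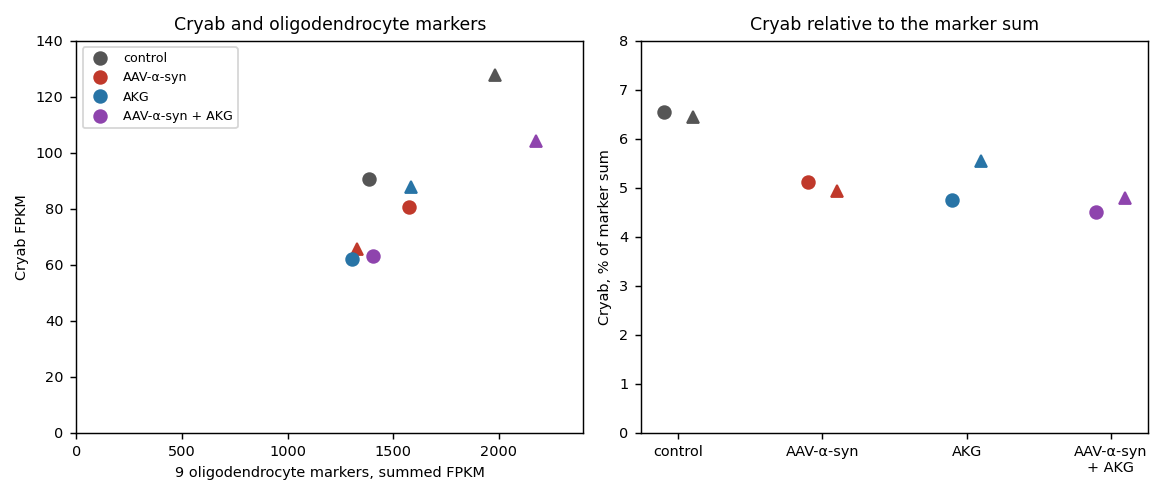
Left, Cryab FPKM against the summed FPKM of 9 oligodendrocyte markers in each library; right, Cryab as a percent of that sum by group, with circles for library 1 and triangles for library 2. The libraries spread from 61.9 to 128 FPKM on the left, and on the right the control libraries, at 6.55% and 6.44%, lie above the others, at 4.51% to 5.55%. The ratio was chosen after the values were seen, and Cryab FPKM alone did not split this way.

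The 10 genes did not move as one block. Over the 8 libraries, Pearson r of log2(FPKM + 1) was above 0 for 32 of 45 pairs, with a median of 0.18 (0.29 without control library 1), and above 0.7 for 5. Hsph1 and Hsp90aa1 were the closest (r = 0.97, and 0.95 without control library 1), followed by Hspa8 and Cryab (0.92), Hsp90aa1 and Hsp90ab1 (0.83), Hspa8 and Hsp90ab1 (0.80) and Hsph1 and Hsp90ab1 (0.74, and 0.60 without control library 1). Bag3 ran against Hsp90aa1 (-0.75) and Hsph1 (-0.72), values that were -0.47 and -0.37 without control library 1. Hspa1a and Hspa1b had an r of 0.19 and Dnajb1 and Hsph1 one of -0.45, values that were 0.29 and -0.056 without that library. These values describe 8 libraries that share a normalization and hold group differences, and they carry no test.

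**Figure D4:**
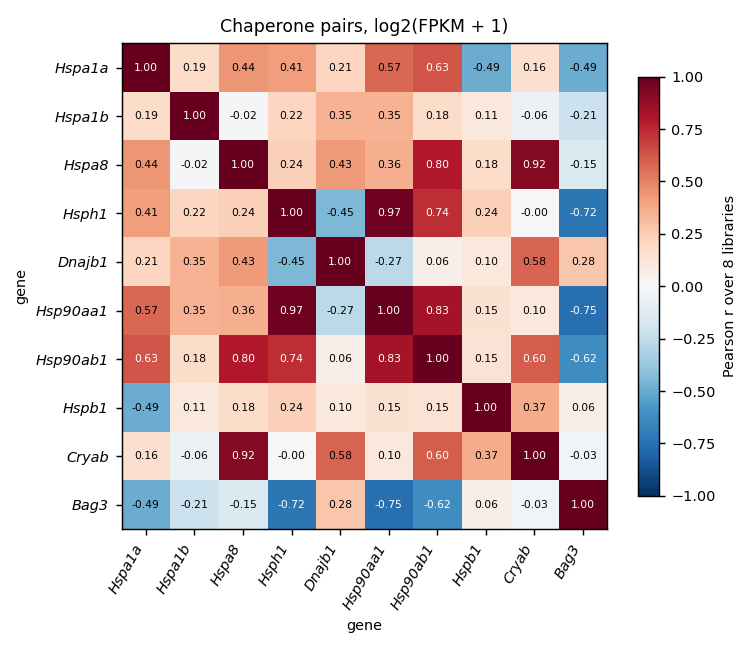
Pearson r between chaperones over the 8 libraries, on log2(FPKM + 1), with red for positive and blue for negative values. Hsph1, Hsp90aa1 and Hsp90ab1 form a block at 0.74 to 0.97, Hspa8 pairs with Cryab at 0.92, and the row of Bag3 is mostly blue.

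The mean standardized profile of Hspa1a, Hspa1b, Dnajb1 and Hsph1, which are raised by heat shock but did not rise and fall together here, was set against 12031 other protein-coding genes. The most alike were Tubd1 (r = 0.98), Ptpn2 (0.95), Fastkd2 (0.94), Serbp1 (0.91), Ssbp3 (0.91), Rad51c (0.89), Skiv2l2 (0.89) and Plpp4 (0.89). The most opposed were Pdk3 (-0.97), Grpel2 (-0.94), Pip5k1a (-0.92) and Gpr75 (-0.91). With 8 libraries and so many genes ranked, these are the extremes of a long list, given without a p. Grpel2, a mitochondrial nucleotide exchange factor of HSP70, is the only chaperone partner among the 12 names, and it is not in the lists described next.

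Other chaperone genes gave no call either. Of 79 such genes in 7 lists, 72 passed the filter, and limma called 0 of 72 in each of the 5 comparisons. Without adjustment 11 had p under 0.05 for AAV-α-synuclein and 10 for AKG against control, shares to be read against 16.8% and 17.7% of all genes, 0 in each comparison of the combined group and 1 in the interaction, and voom on the recovered reads called 0 in each and had 10, 13, 0, 0 and 1 at that level. Without control library 2, against control library 1 alone, 14, 18 and 7 of the 72 were called for AAV-α-synuclein, AKG and the interaction, where 24.5%, 24.6% and 9.98% of all tested genes were. Against control 24 were above and 48 below in each comparison, with medians of -0.12 and -0.09 on the log2 scale, where all tested genes had -0.01 and -0.01. Of all tested genes 51.2% and 51.4% were below. With a minimum of 5 FPKM, 46.0% of genes were above in each, with medians of -0.03. With quantile normalization 45 and 42 were below, with medians of -0.041 and -0.069, where 51.2% and 53.0% of all tested genes were below. In the combined against the AAV-α-synuclein group 32 were above and 40 below (median -0.01), and against the AKG group 29 and 43 (median -0.02). There 47.7% and 50.5% of all tested genes were below. The interaction was above 0 for 49 and below for 23 (median 0.10, against 0.01 for all genes, 50.8% of which were above).

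The counts by role are to be read against the 51.2% and 51.4% of all tested genes that were below control. Chaperonins, the ring-shaped folding machines of cytosol and mitochondria, had 9 of 10 genes below control in both comparisons, with medians of -0.20 and -0.23. Between 8 and 10 of the 10 were below with quantile or median-of-ratios scaling, with the gene length trend removed and without control library 1, where the medians were -0.13 and -0.17. HSP70 exchange factors and other co-chaperones had 7 of 9 below (-0.17 and -0.10), HSP90 paralogs and co-chaperones 9 and 8 of 13 (-0.12 and -0.06), and J-domain proteins 14 and 13 of 23 (-0.04 and -0.03). With quantile normalization the medians of the HSP90 list were -0.034 and -0.00030, and 5 of 9 exchange factors were below for AKG. The other HSP70 and HSP110 genes had 6 and 5 of 10 above (0.08 and 0.04), medians that were -0.0044 and -0.04 without control library 1. The heat shock factors and Hsbp1 had medians of 0.01 and -0.05 in 4 genes. The RNA of Hsf1, the main regulator of the inducible members, was at 4.48 to 5.95 FPKM in all libraries. Of the 8 other small heat shock proteins 3 passed the filter, and all 3 were below control (-0.33 and -0.39), against 2 of 3 without control library 1 (-0.12 and -0.070).

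The lowest for AAV-α-synuclein against control were the small heat shock protein Hspb8 (-0.88 ± 0.48, limma adjusted p = 0.340) and the mitochondrial chaperonin partner Hspe1 (-0.48 ± 0.20, 0.294), and the highest was Hspa12a, a distant HSP70 relative (0.76 ± 0.27, 0.294). For AKG against control the lowest were Hspb8 (-0.83 ± 0.48, 0.365) and Hspa2 (-0.48 ± 0.24, 0.320), and the highest was Hspa12a (0.84 ± 0.27, 0.269). Control library 1 was the extreme of all 8 libraries for each of these 4 genes: it had 34.5 FPKM of Hspb8 against 8.29 to 14.0 in the others, 31.4 of Hspa2 against 15.8 to 17.4, 70.8 of Hspe1 against 40.2 to 60.9, and 17.8 of Hspa12a against 34.6 to 47.7. In the combined against the AAV-α-synuclein group the HSP70 co-chaperone Bag2 (-0.20) and the HSP90 co-chaperone Ppid (-0.15) were lowest, and Sil1, an exchange factor of the endoplasmic reticulum, (0.19) and the J-domain gene Dnaja4 (0.19) highest. Against the AKG group the HSP90 co-chaperone Chordc1 (-0.23) and the mitochondrial HSP90 Trap1 (-0.14) were lowest, and Fkbp5, an HSP90 co-chaperone of steroid receptors, (0.20) and the heat shock factor Hsf4 (0.11) highest. In the interaction Hspa12a (-0.86) was lowest and Hspb8 (0.88) and Sil1 (0.52) highest.

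Genes that respond to handling or temperature are set beside these values. The cold-induced RNA-binding protein genes Cirbp and Rbm3 summed to 89.5 FPKM in control library 1 and to 48.6 to 64.2 in the others. The 12 immediate early genes, with Fos and Arc, summed to 49.1 and 59.8 in control and to 59.7 and 58.8 in the AKG group. In the AAV-α-synuclein and combined groups they summed to 61.3 to 71.1. The 15 clock genes summed to 159 and 196 in control and to 207 to 233 in the other 6 libraries. Among single genes, 14.3% of those tested had all 6 other libraries above both control libraries. The part of these in the chaperone values was not tested.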

How the data were processed

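The authors deposited 1 table of FPKM values with gene length, symbol and GRCm38 coordinates, per the file headers. The submitters' processing notes name the builds GRCm38 and mm10, and neither they nor the headers name an aligner, a counter or a strand setting. FPKM times gene length gave whole multiples of 1 step per library in 100% of cases, with a tolerance of 0.01 read, which let whole reads be recovered as an alternative input. Coordinates of all 10 chaperones matched GENCODE M21.

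The 13716 genes that averaged 1 FPKM or more were tested on log2(FPKM + 1) with limma 3.58.1 in R 4.3.3 (1 mean per group over 8 libraries, eBayes with trend, two-sided, 4 residual degrees of freedom), adjusted by Benjamini-Hochberg over all tested genes at 0.05. The interaction and the 4 pairwise comparisons were fitted. The fit was tested on simulated data. Tables used pandas 2.3.3 and figures matplotlib 3.10.9, under Python 3.11.15. Windows of transcripts were compared with all GENCODE M21 transcripts on both strands. The members and lists were chosen with earlier results of these data known. The rule for named genes takes all 10 members, the 2 highest and 2 lowest other chaperones per comparison (1 of them is not reported here), and the 8 most and 4 least alike genes. Alternatives were other filters, pseudocount, scaling, variance and weighting choices, the replicate block, voom, only the groups compared, each library left out and, chosen after seeing the data, removal of a spline in gene length.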

Additional observations from a re-analysis of the deposited data

How the results depend on the processing

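Members called stayed at 0 of 10 in all 5 comparisons under each alternative, with 1 exception: over the libraries left out in turn, the count for AKG against control ran from 0 to 1 (Bag3, without control library 2). Counts over all genes were less steady. Without the filter they were 5, 12, 6 and 14 in the 4 pairwise comparisons in the order of the report. For AKG against control, where limma called 1 gene, the count was 2 with a pseudocount of 0.1 and 0 with the replicate block, with eBayes without a trend, with library weights and with the gene length trend removed. Leaving out 1 library at a time gave 0 to 3359 for AAV-α-synuclein, 0 to 3376 for AKG and 0 to 1369 for the interaction, each highest without control library 2. Same-numbered libraries did not deviate together throughout (r of -0.32 to 0.34 between groups, highest between the AKG and combined groups). With 2 libraries a group these values cannot settle whether the numbers pair the libraries. The replicate block gave 0 members called in every comparison.

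Of the log2 differences of single members, these changed sign, all of them values that missed the threshold, and the cause was not tested. With quantile normalization Hspa8 and Hsp90ab1 were 0.13 and 0.30 for AAV-α-synuclein and 0.063 and 0.26 for AKG against control, and Hspa8 was -0.12 in the interaction. With the gene length trend removed Hspa1a, Hsp90ab1, Hspb1 and Bag3 were 0.10, 0.10, 0.039 and 0.078 for AAV-α-synuclein, Hspa1a, Hspa1b and Hsp90ab1 were 0.0091, 0.086 and 0.082 for AKG, Bag3 was -0.027 for the combined against the AAV-α-synuclein group, and Hspa1a was -0.10 in the interaction. With voom Hspa1a was 0.0013 for AAV-α-synuclein against control. With 1 library left out the sign also changed for the following. For AAV-α-synuclein against control the ranges were -0.30 to 0.27 (Hspa1a), -0.18 to 0.015 (Hspa8), -0.017 to 0.49 (Hsph1), -0.080 to 0.23 (Hsp90aa1), -0.14 to 0.12 (Hsp90ab1), -0.31 to 0.17 (Bag3). For AKG against control the ranges were -0.36 to 0.20 (Hspa1a), -0.089 to 0.047 (Hspa1b), -0.022 to 0.28 (Hsp90aa1), -0.14 to 0.13 (Hsp90ab1), -0.13 to 0.43 (Hspb1). For the combined against the AAV-α-synuclein group the ranges were -0.15 to 0.038 (Hspa1a), -0.095 to 0.064 (Hspa8), -0.42 to 0.079 (Hsph1), -0.20 to 0.023 (Hsp90aa1), -0.11 to 0.038 (Hsp90ab1), -0.17 to 0.29 (Hspb1), -0.20 to 0.51 (Cryab), -0.032 to 0.049 (Bag3). For the combined against the AKG group the ranges were -0.22 to 0.24 (Hspa1a), -0.044 to 0.11 (Hspa8), -0.036 to 0.064 (Dnajb1), -0.22 to 0.49 (Cryab). For the interaction the ranges were -0.25 to 0.31 (Hspa1a), -0.16 to 0.10 (Hsp90ab1), -0.37 to 0.20 (Hspb1). Hspa1a, Hspa1b and Bag3 have no value with a minimum of 5 FPKM, and fitting only the groups compared was not run for the interaction. Counting error limits Hspa1a and Hspa1b, with 74 to 227 reads a library.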

Other observations

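The 2 control libraries were farther apart than the libraries of the other groups for these chaperones. The median ratio of the higher to the lower library over the 10 genes was 1.26 in control, 1.14 with the vector, 1.07 with AKG and 1.06 with both. The difference was beyond counting error (chi-square on the recovered reads, unadjusted p under 0.05) for 8 of 10 genes in control and 6 of 10 in each other group, which describes those libraries and not the conditions. The share over all genes was not computed, so these counts say nothing particular to the chaperones. Genes with many reads passed at small ratios, such as 1.04 for Hsp90ab1 in the AKG group.

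Hsp90ab1 stood at 1.78 to 2.01 times the FPKM of Hsp90aa1 in all 8 libraries.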
